A study of Mus musculus with 11 samples.

Results

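The genes described here are 32 genes of mitochondrial and peroxisomal fatty acid oxidation, of ketone body metabolism and of the regulatory axis around PPAR alpha, taken as a list by what their products do. They were matched by symbol among the 37310 gene identifiers of the count tables, and all 32 were found. All 32 also passed the filter on low counts, which left 14172 genes to test. The list holds 1 enzyme of ketone body metabolism, Bdh1, so it is in the main a list of fatty acid oxidation genes.

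RNA was sequenced from 11 cultures of organoids, which are epithelial structures that form from intestinal crypts and keep crypt-like and villus-like cells in culture. The libraries are labelled as small intestine epithelium of 2 mice, mouse_283 and mouse_285, both of the genotype Lgr5-EGFP-IRES-creERT2, an allele that places a fluorescent protein and an inducible Cre recombinase under control of the stem cell gene Lgr5. The early group comprised passages 2, 3 and 4 of mouse_283 and passages 2 and 4 of mouse_285 (n = 5), and the late group passages 11, 12 and 13 of each animal (n = 6), all grown in Matrigel and IntestiCult medium with no further treatment named in the labels. The comparison of these groups asks how expression differs after many passages. All libraries of an animal descend from that animal's crypts, and a p-value here weighs a difference against the spread among libraries that come from 2 animals. The protocol names mice of 4 and 24 months and crypts taken from both ends of the small intestine and from colon, but ties neither an age nor a segment to a library, so ages and segments were not compared. No label gives a culture or sequencing batch, and stage and any such batch cannot be told apart.

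Fatty acids are activated to acyl-CoA esters, carried into mitochondria as carnitine esters and shortened there in repeated rounds of a reaction cycle, whose electrons pass through the electron transfer flavoprotein to the respiratory chain. Peroxisomes shorten very long chains and other substrates that mitochondria handle poorly. PPAR alpha, a nuclear receptor that responds to fatty acids and binds DNA together with RXR, activates many of these genes in liver and small intestine, with the coactivator PGC-1 alpha (Ppargc1a) and the membrane-bound factor CREB-H (Creb3l3) acting on overlapping targets. In the intestine absorptive enterocytes carry much of this programme, since they take up dietary fat.

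Each library held between 15114132 and 28949911 reads in genes, and 3 reads corresponded to 0.104 to 0.198 CPM (counts scaled to library size), a limit that covers counting error only. The summed level of 9 epithelial markers lay between 7925 and 18440 CPM, that of 10 immune markers between 7.74 and 23.0 CPM and that of 12 mesenchymal and endothelial markers between 1.04 and 5.23 CPM. Among the defining markers of other cells, Ptprc of leukocytes had no read in 10 of 11 libraries, and Dcn and Lum of fibroblasts and Kdr of endothelium had none in all 11. Passages 3 and 4 of mouse_283 stood apart: expression rose by 1.13 and 0.89 on the log2 scale for every 10 points of transcript GC content relative to the mean library, whereas the other 9 libraries lay between -0.46 and 0.24. Reads from mitochondrial genes made up 1.05% and 2.32% in those libraries and between 2.44% and 6.04% in the other 9. Values given for all 11 libraries alone may therefore rest on them in part. Many results are given also with a correction for GC content and transcript length and without both libraries. Without both, the early group keeps passage 2 of each animal and passage 4 of mouse_285, so it is mostly passage 2. Passage 2 of mouse_283, then the only early library of that animal, differed in other ways. Reads in no gene made up 11.7% there and at most 6.64% in any other library. It also held the lowest change with GC content, -0.46, and the highest immune marker sum, 23.0 CPM. Leaving it out changed the calls over all genes more than leaving out any other library, from 332 lower and 100 higher to 2265 and 2599.

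The genes of the list spanned a wide range of levels. Per length of transcript, the most abundant was Hadh, at 378 ± 66.5 CPM per kilobase in early (SD, n = 5) and 235 ± 39.5 in late libraries (SD, n = 6). Etfb, Acaa2, Acsl5, Echs1 and Etfa followed, with means over all libraries between 126 and 193 CPM per kilobase. Ranks among these neighbours do not separate beyond their spread, since early Etfb was 226 ± 149 and early Acaa2 223 ± 92.0 CPM per kilobase (SD, n = 5). At the other end were the regulators Ppara and Ppargc1a and the kinase Pdk4, with Pdk4 at 0.41 ± 0.28 CPM per kilobase in early (SD, n = 5) and 0.21 ± 0.083 in late libraries (SD, n = 6). The ratio of the highest to the lowest library was 1.59 for Decr1, the steadiest gene, 2.63 for the median gene and 9.34 for Ppargc1a.

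**Figure D1:**
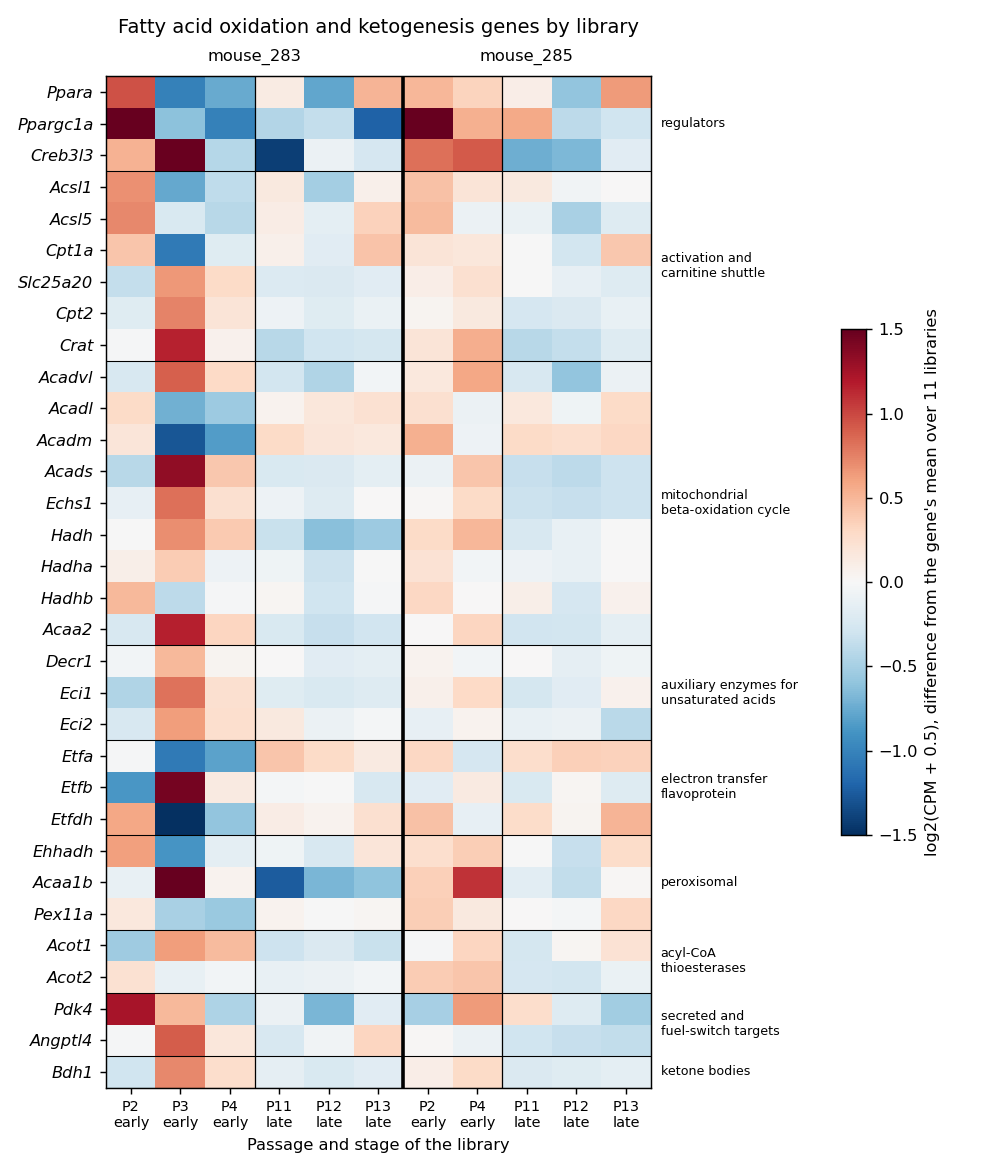
Difference of log2(CPM + 0.5) from each gene's mean over the 11 libraries, for the 32 genes in rows grouped by role and the libraries in columns by animal and passage (red higher, blue lower). Passage 3 of mouse_283 holds the highest value of 18 genes and the lowest of 9, which is seen as its column of strong colours in both directions.

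In late against early passage, 2 of the 32 genes were lower and none higher by edgeR's quasi-likelihood test with Benjamini-Hochberg adjustment over all tested genes. These were Hadh, which encodes the short-chain hydroxyacyl-CoA dehydrogenase of the mitochondrial cycle, and Creb3l3. Over all tested genes 2.34% were called lower and 0.706% higher, and a count of 2 does not set the list apart. The estimates leaned downwards: 26 were negative and 6 positive, with a median log2 change of -0.36, where 51.4% of all tested genes were negative with a median of -0.02. Without adjustment, 12 genes were lower and 1 higher at p under 0.05, and DESeq2 called 5 lower (Acaa1b, Acadvl, Crat, Creb3l3 and Hadh) and none higher, where it called 5.99% of genes lower and 3.5% higher. Both calls ended when any of 7 libraries was left out in turn, namely each of the 6 late libraries and passage 4 of mouse_285. Over all 11 such fits Hadh was called in 3 and Creb3l3 in 2, with adjusted p-values up to 0.12 and 0.14. Leaving out passage 2 of mouse_283 instead gave 13 lower and 1 higher, while 16.0% of all tested genes were then called lower and 18.3% higher.

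**Figure D2:**
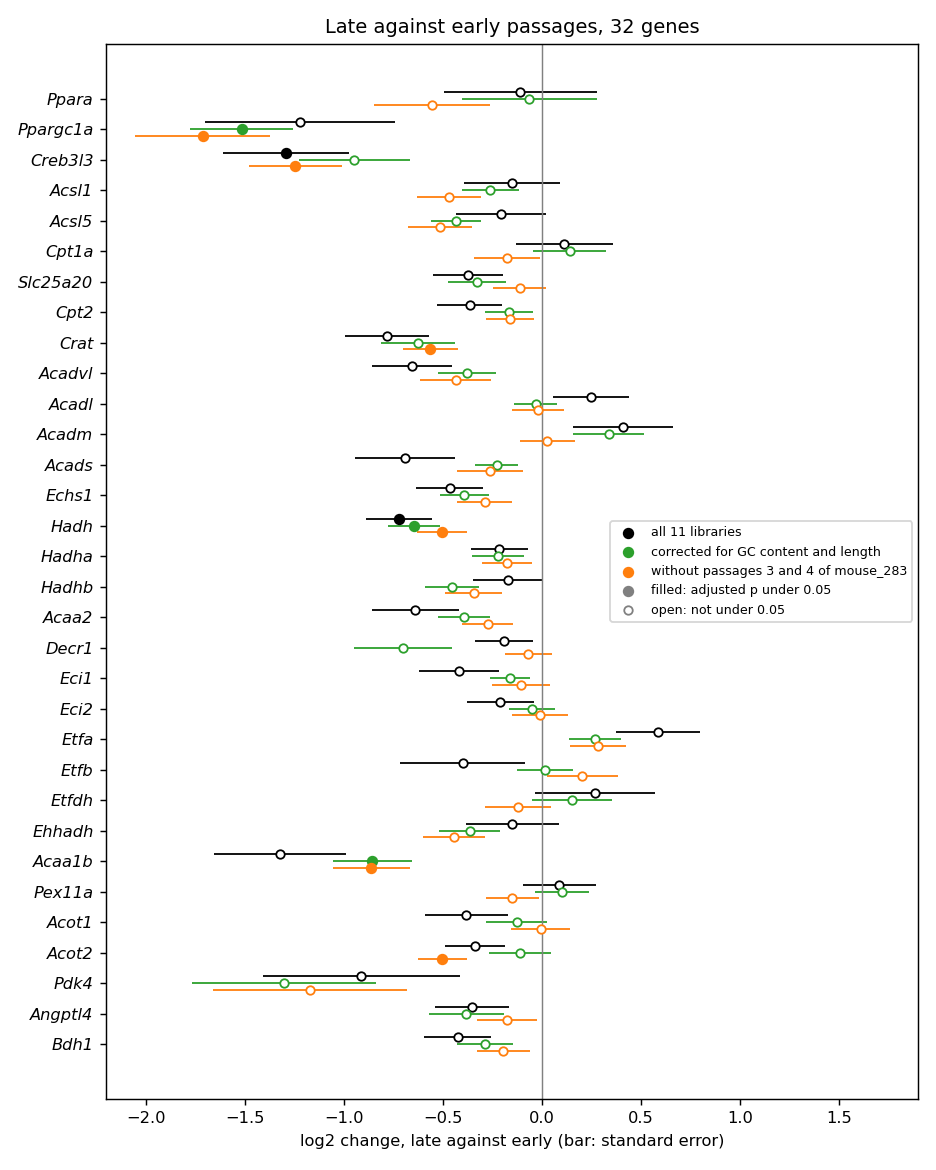
Log2 change in late against early passage for each gene, with its standard error as the bar, in 3 fits: all 11 libraries (black), corrected for GC content and length (green) and without passages 3 and 4 of mouse_283 (orange). Filled points have an adjusted p under 0.05; Hadh is the gene filled in all 3.

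Among the regulators, Creb3l3 read 82.9, 162 and 42.6 CPM at passages 2, 3 and 4 of mouse_283 and 102 and 109 CPM at passages 2 and 4 of mouse_285. At passages 11, 12 and 13 it read 21.4, 54.1 and 48.1 CPM in mouse_283 and 34.4, 35.8 and 51.2 CPM in mouse_285. Passage 4 of mouse_283 lay inside the late range, and the other 4 early libraries lay above all 6 late ones. Its level fell by 1.29 on the log2 scale (SE 0.32, adjusted p = 0.047). With the correction for GC content and length the change was -0.95 (SE 0.28) and missed the threshold (adjusted p = 0.054). Dropping passages 3 and 4 of mouse_283 gave -1.24 (SE 0.24, adjusted p = 0.0086).

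Ppargc1a had its highest values at passage 2. It read 13.5, 2.59 and 1.84 CPM at passages 2, 3 and 4 of mouse_283, 14.5 and 6.38 CPM at passages 2 and 4 of mouse_285, and late values of 3.00, 3.20 and 1.55 CPM in mouse_283 and 6.50, 3.12 and 3.35 CPM in mouse_285. The 2 libraries of passage 2 stood above all others, and the remaining early libraries overlapped the late ones. The log2 change of -1.22 (SE 0.48) did not pass (adjusted p = 0.16). This transcript has the lowest GC content of the list, 41.7%. After correction its log2 CPM was 2.54, 4.10 and 3.41 in early mouse_283, 3.20 and 2.86 in early mouse_285, and between 0.56 and 1.84 in the 6 late libraries, with no overlap. The corrected change was -1.52 (SE 0.26, adjusted p = 0.0045), and dropping passages 3 and 4 of mouse_283 gave -1.71 (SE 0.34, adjusted p = 0.011). The early group of the latter fit is mostly the 2 libraries of passage 2, so it does not separate stage from passage 2. Dropping passage 2 of mouse_283 alone, without the correction, gave -0.58 (SE 0.39, adjusted p = 0.25), and Ppargc1a was called in 0 of the 11 fits that left out 1 library.

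Ppara itself read 21.5, 5.12 and 6.24 CPM at passages 2, 3 and 4 of mouse_283 and 15.5 and 13.8 CPM at passages 2 and 4 of mouse_285. Its late values were 11.9, 6.13 and 15.7 CPM in mouse_283 and 11.7, 7.05 and 17.2 CPM in mouse_285, so both stages covered the same range. The 2 lowest early values were those of passages 3 and 4 of mouse_283. The log2 change was -0.11 (SE 0.39, adjusted p = 0.87). With the correction it was -0.06 (SE 0.34, adjusted p = 0.92), and without those libraries -0.56 (SE 0.29, adjusted p = 0.32).

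Because PPAR and RXR bind a direct repeat with 1 base between the copies (DR1), the promoters of the list were searched for AGGTCANAGGTCA on both strands, from 250 bases before to 50 bases after each RefSeq start. Any windows of the list on 1 chromosome were left out, while the set of all promoters kept that chromosome. Windows were then at hand for 28 of the 32 genes, 31 in all, and Crat, Acaa2, Decr1 and Angptl4 had none among those used. No window held DR1 with at most 1 mismatch over its 12 fixed letters, and 4 windows (12.9%) held a copy with 2, against 3.86% of 32841 promoters. They belonged to Creb3l3, Echs1, Etfa and Slc25a20. A single AGGTCA was in 16.1% of the windows and in 16.3% of all promoters. The list's windows had a median GC content of 58.7% and all promoters one of 52.7%, and the part of this in the counts was not tested. A match describes letters and not binding. A window of each of the 2 called genes is shown 5′ to 3′ in the direction of the gene, from RefSeq on GRCm38.p6, with the stretch closest to DR1 on either strand in capitals; Creb3l3 lies on the minus strand at chr10:81092542-81092841 and Hadh on the minus strand at chr3:131272052-131272351.
Creb3l3: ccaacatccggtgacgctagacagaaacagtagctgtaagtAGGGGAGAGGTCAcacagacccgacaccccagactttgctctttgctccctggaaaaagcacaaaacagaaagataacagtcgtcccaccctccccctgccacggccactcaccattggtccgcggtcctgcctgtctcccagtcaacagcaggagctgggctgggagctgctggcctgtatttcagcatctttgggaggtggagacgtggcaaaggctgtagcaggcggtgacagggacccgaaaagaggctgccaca
Hadh: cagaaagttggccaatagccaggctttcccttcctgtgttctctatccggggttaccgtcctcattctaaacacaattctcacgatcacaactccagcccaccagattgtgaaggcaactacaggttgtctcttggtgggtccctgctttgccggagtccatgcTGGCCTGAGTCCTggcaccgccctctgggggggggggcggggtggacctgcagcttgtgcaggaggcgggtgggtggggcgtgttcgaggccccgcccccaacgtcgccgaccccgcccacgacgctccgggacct
Creb3l3 has a second window in the table, at chr10:81098823-81099122 on the minus strand, which differs from DR1 at 4 letters at its closest, holds no AGGTCA and is not printed. The capitals in the printed window of Creb3l3 differ from DR1 at 2 letters and lie 209 to 197 bases before the start, on the gene's strand. Those in Hadh lie on the other strand and differ at 3 letters, and 24.6% of all promoters hold a stretch that differs at 3 or fewer.

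Activation and carnitine shuttling comprise the ligases Acsl1 and Acsl5, the outer-membrane transferase Cpt1a, the translocase Slc25a20, the inner transferase Cpt2 and the carnitine acetyltransferase Crat. None of the 6 passed the test, and their log2 changes ran from -0.78 to 0.11. Cpt1a, the step usually taken to set the rate of entry, read 104, 36.9 and 68.4 CPM at passages 2, 3 and 4 of mouse_283, 89.2 and 87.3 CPM at passages 2 and 4 of mouse_285, and late values of 82.4, 69.2 and 105 CPM in mouse_283 and 77.7, 64.4 and 103 CPM in mouse_285. Its stages overlapped, and the log2 change was 0.11 (SE 0.24, adjusted p = 0.78), which turned to -0.18 without passages 3 and 4 of mouse_283.

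Crat was the only gene of the list for which every late library lay below every early one, a pattern shown by 3.51% of all tested genes. No gene of the list had all late above all early libraries, against 2.21%. It read 42.0, 94.7 and 44.3 CPM in early mouse_283 and 48.6 and 62.2 CPM in early mouse_285, against 31.6 to 36.9 CPM in the late libraries. The log2 change was -0.78 (SE 0.21) and did not pass (adjusted p = 0.070). With the correction it was -0.63 (SE 0.19) and did not pass either (adjusted p = 0.056), while dropping passages 3 and 4 of mouse_283 gave -0.56 (SE 0.14, adjusted p = 0.035). Within each animal on its own, every late value was below every early value for Crat, Hadh and Acaa1b, against 5.44% of all tested genes, and no gene of the list had the opposite pattern, against 3.99%. After the correction this held for Ppargc1a, Acsl1, Acsl5, Echs1, Hadh and Hadhb, against 4.65% of genes, and no longer for Crat and Acaa1b. For Ppargc1a, Acsl1, Acsl5 and Hadhb it rests on the correction, since passages 3 and 4 of mouse_283 lay within or below the late range before it.

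The cycle enzymes were 4 acyl-CoA dehydrogenases for very long, long, medium and short chains (Acadvl, Acadl, Acadm and Acads), the hydratase Echs1, the dehydrogenase Hadh, the 2 subunits of the trifunctional protein (Hadha and Hadhb) and the thiolase Acaa2. Of these 9 genes Hadh passed, 6 others had negative estimates and 2 positive ones (Acadl and Acadm).

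Hadh read 514, 835 and 678 CPM at passages 2, 3 and 4 of mouse_283 and 629 and 730 CPM at passages 2 and 4 of mouse_285. At passages 11, 12 and 13 it read 409, 332 and 352 CPM in mouse_283 and 435, 477 and 515 CPM in mouse_285. The highest late value, passage 13 of mouse_285, lay level with the lowest early value, passage 2 of mouse_283, and all other late values were below all early ones. The level fell by 0.72 on the log2 scale (SE 0.17, adjusted p = 0.037). Hadh remained under the threshold with the correction, at -0.65 (SE 0.13, adjusted p = 0.011), and when passages 3 and 4 of mouse_283 were dropped, at -0.51 (SE 0.13, adjusted p = 0.036). Within mouse_283 the change was -0.89 (SE 0.23, adjusted p = 0.089) and within mouse_285 -0.51 (SE 0.25, adjusted p = 0.94).

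The other 8 cycle genes had log2 changes from -0.69 (Acads, SE 0.25, adjusted p = 0.14) to 0.41 (Acadm, SE 0.25, adjusted p = 0.31). With the correction Acads was at -0.23, Acaa2 at -0.39 and Acadm at 0.34. Without passages 3 and 4 of mouse_283 they were at -0.26, -0.27 and 0.03. For Acadvl, at -0.66 (adjusted p = 0.098), 42.9% of the exon length overlaps Dvl2 on the opposite strand in the GENCODE annotation. If the annotation behind the files holds this overlap, unstranded reads from it count as ambiguous and are missing from both genes. If it does not, reads of 1 gene may be counted for the other. The same holds in smaller part for Bdh1 (13.7%, with Gm15743), Acaa1b (11.4%, with Dlec1), Acsl5 (8.31%, with Zdhhc6) and Crat (7.63%, with Gm16323).

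**Figure D3:**
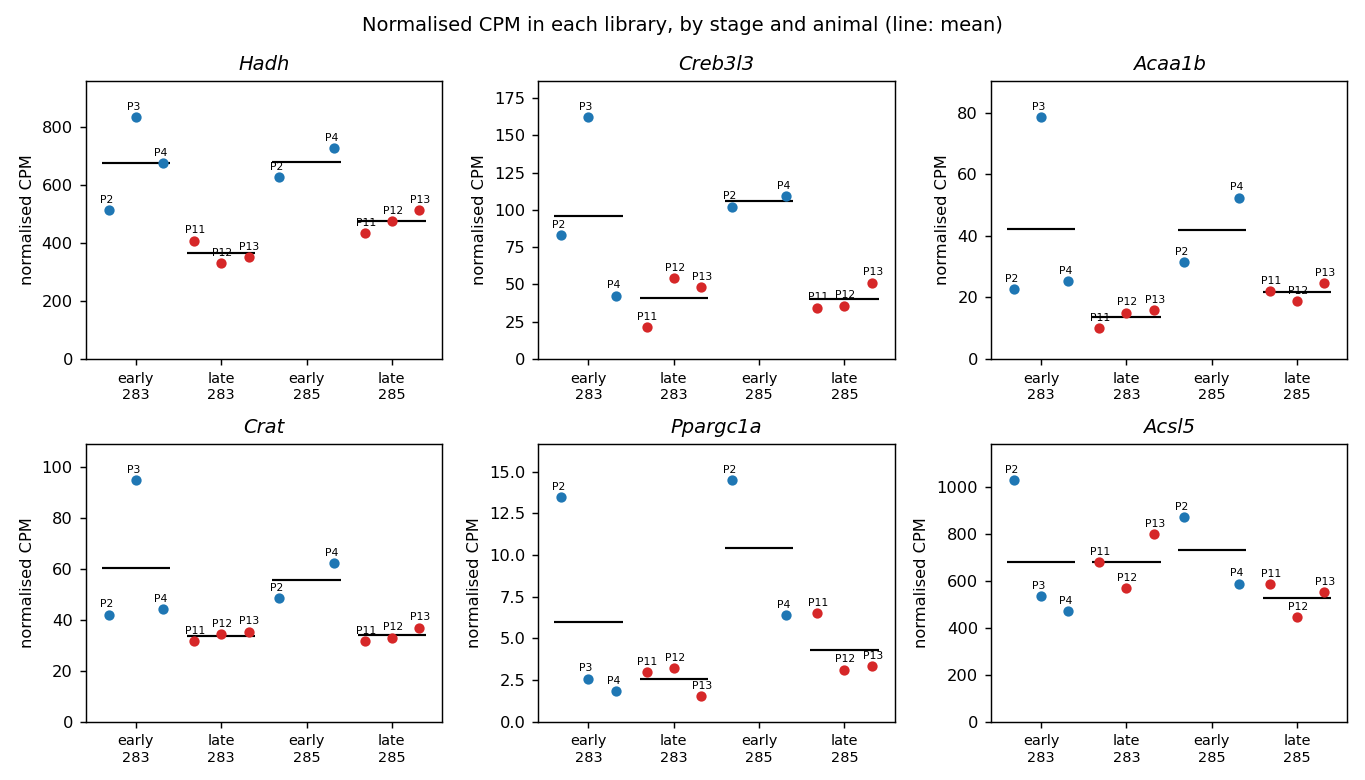
Normalised CPM of 6 genes in each library, by stage and animal, with early libraries in blue, late in red, the passage beside each point and the group mean as a line. For Hadh, Crat and Acaa1b the late points lie below the early points of the same animal, while Ppargc1a and Acsl5 are highest at passage 2.

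Hadha and Hadhb encode the alpha and beta subunits of 1 complex and lie head to head, so that their promoter windows share 228 bases. Their ratio per length lay between 0.90 and 1.31 in 10 libraries and was 2.03 at passage 3 of mouse_283. Neither passed in late against early, with log2 changes of -0.22 (SE 0.14) for Hadha and -0.17 (SE 0.17) for Hadhb. The window of Hadhb, on the plus strand at chr5:30155003-30155302 of GRCm38.p6 (RefSeq), is shown as an example of the pair and holds all of the shared stretch, as does that of Hadha; its closest match to DR1, in capitals, lies on the other strand and differs at 4 of the 12 letters.
Hadhb: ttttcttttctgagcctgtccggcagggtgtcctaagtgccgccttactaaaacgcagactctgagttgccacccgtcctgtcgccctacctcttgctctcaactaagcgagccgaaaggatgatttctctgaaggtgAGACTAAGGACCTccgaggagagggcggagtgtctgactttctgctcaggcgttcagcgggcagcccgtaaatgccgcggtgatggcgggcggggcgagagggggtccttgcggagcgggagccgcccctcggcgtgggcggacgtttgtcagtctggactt

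The enzymes that prepare unsaturated fatty acids for the cycle (the reductase Decr1 and the isomerases Eci1 and Eci2) had log2 changes from -0.42 to -0.19, none of which passed. Decr1 shows what the correction itself can do. Its CPM lay between 53.9 and 85.6 in all 11 libraries, but after correction its log2 CPM was 8.09 and 7.57 at passages 3 and 4 of mouse_283 against 5.21 to 6.22 elsewhere. Its log2 change went from -0.19 (adjusted p = 0.40) to -0.70 (adjusted p = 0.091).

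The electron transfer flavoprotein takes electrons from the acyl-CoA dehydrogenases, with Etfa and Etfb as its alpha and beta subunits and Etfdh as the oxidoreductase that passes them on. None of the 3 passed in late against early. Etfa was at 0.58 (SE 0.21, adjusted p = 0.14), Etfb at -0.40 (SE 0.32, adjusted p = 0.42) and Etfdh at 0.27 (SE 0.30, adjusted p = 0.57). The estimate of Etfa was 0.27 with the correction and 0.28 without passages 3 and 4 of mouse_283. Although Etfa and Etfb serve in 1 dimer, their estimates had opposite signs in the fit of all 11 libraries, and that of Etfb turned to 0.01 with the correction and to 0.20 without passages 3 and 4 of mouse_283. Their levels parted in those libraries. Etfb read 430 and 175 CPM at passages 3 and 4 of mouse_283 against 86.6 to 174 CPM elsewhere, and Etfa 79.9 and 95.7 CPM against 141 to 224 CPM.

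Ratios of paired genes bring this out without any scaling between libraries. The ratio of Etfb to Etfa per length was 8.40 and 2.85 at passages 3 and 4 of mouse_283, and between 0.82 and 1.93 in the other 9 libraries. The ratio of Acads to Acadm was 8.02 and 3.09 against 0.83 to 1.82. Etfb and Acads have a GC content of 57.1% and 60.1%, and Etfa and Acadm of 45.0% and 48.0%. After correction the 2 ratios lay between 0.67 and 2.19 and between 1.09 and 1.82 in all 11 libraries. The ratio of Acot1 to Acot2, genes with 53.4% and 53.7% GC, was 8.25 and 7.08 in the same libraries against 2.91 to 6.16, and correction left it at 8.85 and 7.24. For Hadha and Hadhb the correction widened the ratio, from a 2.26-fold to a 4.28-fold range over the 11 libraries.

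**Figure D4:**
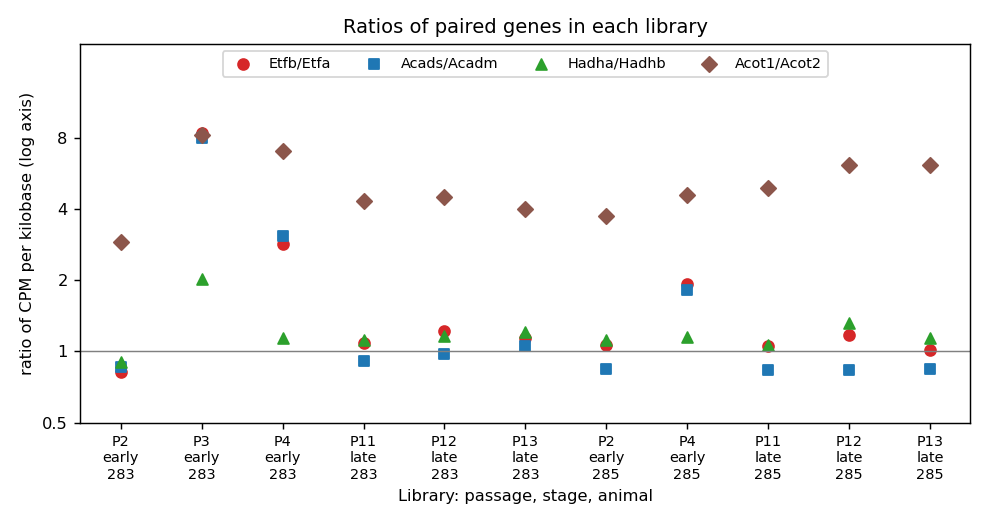
Ratio of CPM per kilobase of 4 pairs of genes in each library, on a log axis. Etfb/Etfa and Acads/Acadm reach 8.40 and 8.02 at passage 3 of mouse_283, while the late libraries lie between 1.02 and 1.22 and between 0.83 and 1.05.

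Across the 32 genes, GC content ran from 41.7% to 60.1%, with a median of 51.0% (50.7% for all tested genes). Over these genes, which are not independent replicates and share the libraries, the log2 change correlated with GC content at r = -0.41, and over 13709 tested genes at r = -0.43. The 20 genes above 50% GC had a median change of -0.41 and the other 12 one of -0.15. With the correction r was 0.14, and the medians were -0.26 and -0.31. Without passages 3 and 4 of mouse_283 r was 0.10, the medians were -0.23 and -0.25, and 29 of 32 estimates were negative. The median change of the list was -0.27 with the correction, 26 of 32 again being negative.

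**Figure D5:**
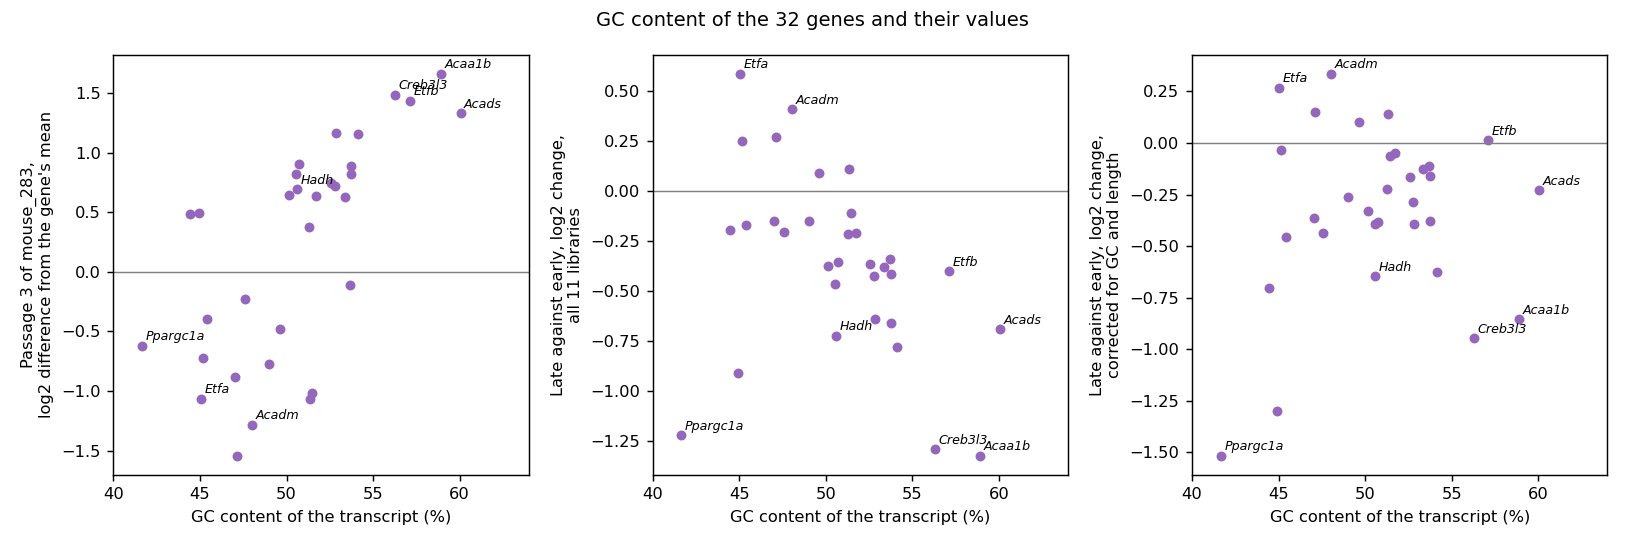
GC content of each gene's transcript in percent against its log2 difference at passage 3 of mouse_283 from its mean over the 11 libraries (left), its log2 change in late against early passage (middle) and the same change after correction (right). The points climb from left to right in the first panel, fall in the middle one (r = -0.41) and show little slope in the last (r = 0.14).

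With the correction 3 genes were called lower, Hadh, Ppargc1a and Acaa1b, and none higher, where 4.41% of 13709 genes were lower and 3.23% higher. Without passages 3 and 4 of mouse_283 it was 6 lower, namely Acaa1b, Acot2, Crat, Creb3l3, Hadh and Ppargc1a, and none higher, where 3.24% of all tested genes were lower and 1.35% higher. On the corrected scale every late library lay below every early one for Ppargc1a, Acsl1, Acsl5, Echs1 and Hadhb, 5 of 32 genes against 2.71% of all genes, and Crat was no longer among them. For Ppargc1a, Acsl1, Acsl5 and Hadhb the pattern rests on the correction of passages 3 and 4 of mouse_283. Before correction these libraries lay within or below the late range, for Acsl5 at 535 and 470 CPM against 446 to 797 CPM. No gene of the list had all late above all early libraries on the corrected scale, against 3.9%.

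Peroxisomal genes were the bifunctional enzyme Ehhadh, the thiolase Acaa1b and Pex11a, which acts in the division of peroxisomes. Acaa1b had the most negative estimate of the list and lay just outside the threshold. It read 22.7, 78.5 and 25.3 CPM at passages 2, 3 and 4 of mouse_283, 31.4 and 52.4 CPM at passages 2 and 4 of mouse_285, and late values of 10.0, 15.1 and 15.9 CPM in mouse_283 and 21.9, 18.9 and 24.8 CPM in mouse_285. Passage 13 of mouse_285 lay above the lowest early library, passage 2 of mouse_283, but stages did not overlap within an animal. After the correction they did within mouse_283, with early log2 CPM of 5.33, 4.51 and 3.92 and late log2 CPM of 3.68, 4.17 and 4.27. The log2 change was -1.32 (SE 0.33, adjusted p = 0.051), and it was -0.86 both with the correction (SE 0.20, adjusted p = 0.021) and when passages 3 and 4 of mouse_283 were dropped (SE 0.19, adjusted p = 0.021). Of its 100-base windows 22.6% are also found in its close copy Acaa1a, whose own change was -0.54 (adjusted p = 0.25). Reads that map to both are not in the counts, so the levels of both genes may be understated. Ehhadh (-0.15) and Pex11a (0.09) did not pass.

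The acyl-CoA thioesterases Acot1 in the cytosol and Acot2 in mitochondria, which share 16.5% and 17.1% of their 100-base windows with each other, were at -0.38 (SE 0.21) and -0.34 (SE 0.15) and did not pass. Pdk4, the kinase that restrains pyruvate dehydrogenase when fat is burned, was close to the counting limit, with 8 to 47 reads per library. It read 2.87, 1.51 and 0.54 CPM in early mouse_283, 0.51 and 1.74 CPM in early mouse_285, and 0.39 to 1.22 CPM in the late libraries, which overlap the early ones. The change of -0.91 (SE 0.50, adjusted p = 0.26) did not pass. Angptl4, a secreted inhibitor of lipoprotein lipase, read 41.2, 78.6 and 47.2 CPM in early mouse_283, 42.3 and 39.2 CPM in early mouse_285, and late values of 35.2, 40.3 and 52.3 CPM in mouse_283 and 33.7, 32.6 and 32.1 CPM in mouse_285. Its stages overlapped, at a change of -0.35 (SE 0.19, adjusted p = 0.26).

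Bdh1, the mitochondrial dehydrogenase that interconverts the ketone bodies acetoacetate and beta-hydroxybutyrate, read 181, 367 and 267 CPM at passages 2, 3 and 4 of mouse_283 and 239 and 273 CPM at passages 2 and 4 of mouse_285. Its 6 late values were closely spaced, at 203, 190 and 198 CPM in mouse_283 and 192, 197 and 201 CPM in mouse_285. Passage 2 of mouse_283 was the lowest of all 11 libraries and the other early libraries were above all late ones. The change was -0.43 (SE 0.17, adjusted p = 0.17). It was -0.29 with the correction and -0.20 without passages 3 and 4 of mouse_283.

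Among the other genes of ketone body metabolism 1 rose. Oxct1, which encodes the enzyme that commits acetoacetate to use as fuel, read 68.4, 32.7 and 25.7 CPM in early mouse_283 and 54.6 and 29.4 CPM in early mouse_285, against 100, 118 and 123 CPM in late mouse_283 and 91.0, 85.1 and 88.0 CPM in late mouse_285. All late libraries were above all early ones, and its level rose by 1.27 on the log2 scale (SE 0.26, adjusted p = 0.021). The rise was 1.09 with the correction (adjusted p = 0.0018), and 0.94 when passages 3 and 4 of mouse_283 were dropped (adjusted p = 0.0095). Acat1, a thiolase of the same metabolism, was at 0.14 (SE 0.17, adjusted p = 0.58) and did not pass.

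Of 17 tested further targets of PPAR alpha, 15 had negative estimates and 1 passed, the lipid droplet protein Cidec, which fell by 1.57 (SE 0.30, adjusted p = 0.017). None of 14 further regulators of the axis passed, their median change being 0.0023, and none of 10 genes of malonyl-CoA and AMPK control. Of the 17 enzymes of the tricarboxylic acid cycle, which burns the acetyl-CoA that oxidation yields, none passed, 13 were negative and the median was -0.27.

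Some markers of absorptive cells differed between stages. Of 20 enterocyte markers, 5 were lower in late passage (Lct, Anpep, Slc5a1, Apoa1 and Apoa4) and none higher. Over all tested genes 2.34% were lower and 0.706% higher. The estimates of the markers had a median of -0.84, with 16 negative and 4 positive (Alpi, Fabp2, Apob and Mgam). Their summed level was 4726 to 7107 CPM in early and 3417 to 4605 CPM in late libraries. The summed level of the 32 genes was 4319 to 5864 CPM in early and 3629 to 4168 CPM in late libraries. Whether the share of enterocytes had a part in the lower levels of Hadh and Creb3l3 was not tested, and in bulk libraries fewer cells of a type and less RNA per cell cannot be told apart.

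The early libraries were not alike. Passage 2 of mouse_283 had the largest share of reads in no gene, 11.7%, so results for passage 2 may rest in part on that library. Both libraries of passage 2 lay above the other 9 for Ppargc1a, Acsl1, Acsl5 and Hadhb, 4 of 32 genes against 4.59% of all tested genes, and below them for none, against 5.21%. Acsl5, a ligase abundant in the intestine, read 1028 and 869 CPM at passage 2 of mouse_283 and mouse_285 against 446 to 797 CPM in the other 9 libraries. Acsl1 read 133 and 113 CPM at passage 2 against 48.3 to 94.6 CPM, and Hadhb read 222 and 195 CPM against 120 to 167 CPM. After correction a different set met the same rule, Creb3l3, Eci1, Acaa1b and Acot2, 4 of 32 against 4.27%. A slope on passage number within the stages, fitted with edgeR, was called for none of 14172 genes (0.0% lower and 0.0% higher), with 1 gene of the list and 911 genes in all at an unadjusted p under 0.05. DESeq2 likewise called none.

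Between the animals no gene of the list was called. With edgeR 0.0776% of all tested genes were lower in mouse_285 and 0.0% higher, and no gene of the list was under 0.05 even before adjustment or called by DESeq2. The largest estimate was 0.78 for Ppargc1a (SE 0.48, adjusted p = 0.89). The stage difference was not called as differing between the animals for any of the 14172 genes by edgeR (0.0% in either direction), where 302 genes and none of the list were under 0.05 unadjusted and DESeq2 called 16 genes, none of them in the list. Within mouse_283 none of the list passed, where 1.09% of all tested genes were lower and 0.332% higher, with 7 of the list lower and 2 higher unadjusted and 2 lower by DESeq2 (Acaa1b and Hadh), which called 3.28% of genes lower and 1.92% higher. Within mouse_285 edgeR called no gene at all (0.0% lower and 0.0% higher), with 762 genes and 2 of the list under 0.05 unadjusted, and DESeq2 called 74 genes and none of the list. Estimates were negative for 24 genes of the list in mouse_283 and for 28 in mouse_285.

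With the mean of each stage and animal removed, the 32 genes did not vary as 1 block. Over the 496 pairs of genes the median correlation across the 11 libraries, which share depth and base composition, was 0.12, with 203 pairs above 0.5 and 184 below -0.5. Dropping passages 3 and 4 of mouse_283 gave a median of 0.19, with 139 and 62 such pairs, and the correction one of 0.08, with 126 and 97.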

How the data were processed

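Counts were deposited by the authors as 1 table of reads per gene for each library. Per the submitters' processing notes, Trimmomatic, STAR and genome build mm9 were used; versions and the annotation release are not given in the sources used here. The unstranded count column was used, since the first strand column held 50.0% to 50.2% of stranded reads. The 4 summary lines (unmapped 4.76% to 10.2%, multimapping 5.92% to 8.78%, no gene 3.77% to 11.7% and ambiguous 3.11% to 4.03%) were left out. Passage numbers are those of the sample titles; file names give a number higher by 1 in all 11 cases. No 2 libraries were duplicates (smallest chi-square per degree of freedom 15.1).

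Counts were filtered with filterByExpr, scaled by TMM and tested with edgeR 4.0.16 (R 4.3.3; quasi-likelihood F test, two-sided, Benjamini-Hochberg adjustment over 14172 genes, threshold 0.05), with animal and stage in the model; limma 3.58.1 and DESeq2 1.42.0 gave alternatives. The standard error is the log2 change divided by the square root of F. CPM values are scaled by TMM, and log2 CPM has a prior count of 2. The correction used offsets from splines (5 degrees of freedom) on GC content and length of the principal transcript in GENCODE M21, a later build than the files, known for 13709 genes (96.7%). The edgeR test of late against early was checked on simulated data with known changes. The other comparisons, the other tools and the correction were not checked in this way.

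The 32 genes, the further lists (18 lists, 215 entries, all found), the promoter search and the alternatives were chosen with earlier results of these data known. Values in every library are given by rule for called genes, Ppara, Ppargc1a, Cpt1a, Pdk4, Angptl4, Bdh1 and the genes of highest and lowest level; Crat, Acaa1b, Acsl5, Etfa and Etfb, the paired genes, Oxct1 and the genes highest at passage 2 were added after their values were seen. Leaving out passages 3 and 4 of mouse_283, each library, the replicate block, scaling, filter and tool were varied. Some genes of the further lists are not reported here.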

Additional observations from a re-analysis of the deposited data

Results flagged for a closer look

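Within the 5 early and the 6 late libraries, the highest or lowest library of a gene lay unusually far from the others in 6 of 64 groups tested, a rule that chance meets in about 1 of 20 groups. Among late libraries, passage 12 of mouse_283 was low for Acsl1 (58.1 CPM, next 79.8) and for Hadha (293 CPM, next 339). Passage 13 of mouse_285 was high for Eci1 (82.9 CPM, next 70.3) and for Pex11a (31.9 CPM, next 26.7). Among early libraries, passage 3 of mouse_283 was high for Decr1 (85.6 CPM, next 63.3) and for Angptl4 (78.6 CPM, next 47.2).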

How the results depend on the processing

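Genes of the list called lower in late passage numbered 2 in the fit reported, where 332 of 14172 genes were lower. They numbered 5 with DESeq2 (848 of 14149 genes lower), 1 with a filter of at least 1 CPM in 5 libraries (287 of 12230) and 1 with limma voom (324 of 14172). With no filter they numbered 6 (766 of 23493), and without passages 3 and 4 of mouse_283 also 6 (459 of 14172). With passage number as a slope they numbered 0 (237 of 14172). With no replicate block, that is without the animal in the model, they numbered 2 (317 of 14172). Leaving out 1 library at a time gave 0 to 13 lower and 0 to 1 higher.

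All genes lower numbered 766 with no filter, 605 with the correction and 848 with DESeq2, and 133 to 2265 when leaving out 1 library. All genes higher numbered 1053 with no filter, 443 with the correction, 192 without passages 3 and 4 of mouse_283, 63 with the slope, 151 with voom and 495 with DESeq2, and 39 to 2599 when leaving out 1 library. Between the animals, genes called numbered 207 with no filter, 51 with the correction, 109 without those libraries and 126 with DESeq2, and 3 to 73 when leaving out 1 library. For the interaction these counts were 65, 2, 4 and 16, and 0 to 2315, with 0 to 2 of the list, when leaving out 1 library. Within mouse_283, DESeq2 called 2 genes of the list lower, where 464 of 14163 genes were lower and 272 higher. With the correction 3 were lower, where 398 of 13709 genes were lower and 297 higher. With no filter 2 were lower and 1 higher, where 520 of 23493 genes were lower and 926 higher. Leaving out 1 library gave 0 to 21. The 21, 15 lower and 6 higher, came without passage 2 of mouse_283, where 3607 of 14172 genes were lower and 4096 higher. Within mouse_285, 1 gene of the list was lower with no filter, where 67 of 23493 genes were lower and 47 higher. Without passages 3 and 4 of mouse_283, 3 were lower, where 234 of 14172 genes were lower and 88 higher.

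Of 671 log2 changes of single genes in 21 alternatives, 605 kept direction and side of the threshold, and 24 of 32 genes never changed sign. When leaving out 1 library, the change of Ppara ran from -0.29 to 0.31, of Acsl1 from -0.28 to 0.095, of Ehhadh from -0.30 to 0.053 (each highest without passage 2 of mouse_283), of Cpt1a from -0.046 to 0.28, of Etfb from -0.58 to 0.055 (turned without passage 3 of mouse_283) and of Pex11a from -0.0049 to 0.19 (turned without passage 4 of mouse_283). Ppara was also positive without passage 12 of mouse_283 (0.022) or of mouse_285 (0.031). Without passages 3 and 4 of mouse_283 signs turned for Cpt1a (-0.18), Acadl (-0.022), Etfb (0.20), Etfdh (-0.12) and Pex11a (-0.15). With the correction Acadl was at -0.032 and Etfb at 0.015. The causes were not tested. Depth limits Pdk4 most, with 8 reads in its lowest library.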

Other observations

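Enteroendocrine and tuft cell markers, which belong to other lineages of the organoids than the absorptive cells, also differed between stages. Of 9 tested enteroendocrine markers, 2 rose in late passage (Chgb and Neurod1) and 2 fell (Sst and Pyy), and of 6 tested tuft cell markers 4 fell (Trpm5, Avil, Sh2d6 and Alox5ap), with none higher. None of 10 stem cell markers and none of 10 proliferation markers passed, with median changes of 0.48 and 0.21 on the log2 scale.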
